A study of Mus musculus with 6 samples.

Results

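The non-classical MHC class I genes H2-Q4, H2-Q6, H2-Q7, H2-T10, H2-T22, H2-T23, H2-T24 and H2-M3 were followed in tumours of B16F10, a mouse melanoma cell line. They were taken by name from the H2-Q, H2-T and H2-M regions, and all 8 were found among the 20938 genes of the deposited table. The study set 3 tumours labelled as YKL-40 overexpressing against 3 control tumours. YKL-40 is a secreted chitinase-like protein. In both groups the cells had been injected under the skin of the hind leg of male C57BL/6 mice aged 6 weeks, with tumours collected on day 19, and the genotype is labelled WT. The labels give neither the control vector, the species of the overexpressed sequence, nor the number of cell clones, nor whether each library is from a mouse of its own. The p-values therefore measure only the spread between these libraries, which may be technical.

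Class I molecules are made of a heavy chain, the light chain beta-2 microglobulin and usually a peptide. The classical molecules, H2-K and H2-D in this strain, are found on most cells and show peptides to CD8 T cells. Non-classical molecules vary less between mice, and several serve innate-like lymphocytes. Qa-1, the product of H2-T23, carries leader peptides of other class I chains to the receptor CD94/NKG2A on natural killer and T cells. Qa-2 is made from the H2-Q6 to H2-Q9 group and can be held in the membrane by a lipid anchor. H2-M3 binds peptides that start with formylmethionine, as bacterial and mitochondrial peptides do. T10 and T22 hold no peptide and are bound by some gamma delta T cells.

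The promoters of several members hold short letter matches to elements by which class I genes are known to answer NF-kB and interferon regulatory factors. Elements for the NLRC5 complex were looked for only in part, as TGACG and CCAAT. The RefSeq promoter table (GRCm38.p6, the assembly of mm10) held 6 of the 8 members. For 5 of them the 250 bases before the annotated start are printed 5′ to 3′. They were chosen to cover the 3 regions and changes, given further on, from 0.96 (H2-T22) to 2.80 (H2-Q6). H2-T24, the member with the smallest change, had no promoter there. Capitals mark matches on either strand to GGGNNTTCC (NF-kB-like), TTTCNNTTC, with or without 1 more T before the last C (IRF-like), TGACG (the CRE half-site) and CCAAT. No match overlapped another, and the IRF-like letters were widened by that T after the H2-T22 and H2-T23 sequences had been seen.
H2-Q4: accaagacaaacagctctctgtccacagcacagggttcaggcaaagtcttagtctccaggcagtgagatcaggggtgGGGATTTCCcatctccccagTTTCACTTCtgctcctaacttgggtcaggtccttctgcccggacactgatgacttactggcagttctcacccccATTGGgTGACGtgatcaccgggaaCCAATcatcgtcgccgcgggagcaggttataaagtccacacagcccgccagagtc
H2-Q6: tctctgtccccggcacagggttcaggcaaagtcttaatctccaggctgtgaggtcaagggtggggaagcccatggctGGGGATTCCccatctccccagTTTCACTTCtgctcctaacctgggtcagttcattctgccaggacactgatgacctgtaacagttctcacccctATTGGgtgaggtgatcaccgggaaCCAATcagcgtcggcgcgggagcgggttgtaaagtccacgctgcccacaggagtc
H2-T22: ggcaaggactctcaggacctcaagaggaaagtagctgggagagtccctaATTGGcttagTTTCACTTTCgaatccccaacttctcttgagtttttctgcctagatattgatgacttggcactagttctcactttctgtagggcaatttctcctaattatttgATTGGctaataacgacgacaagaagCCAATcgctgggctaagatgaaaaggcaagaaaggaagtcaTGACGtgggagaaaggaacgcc
H2-T23: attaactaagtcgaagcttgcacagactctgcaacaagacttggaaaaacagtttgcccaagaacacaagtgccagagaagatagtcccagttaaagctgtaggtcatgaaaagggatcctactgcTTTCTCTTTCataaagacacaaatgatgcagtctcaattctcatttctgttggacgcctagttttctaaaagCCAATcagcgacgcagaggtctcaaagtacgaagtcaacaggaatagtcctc
H2-M3: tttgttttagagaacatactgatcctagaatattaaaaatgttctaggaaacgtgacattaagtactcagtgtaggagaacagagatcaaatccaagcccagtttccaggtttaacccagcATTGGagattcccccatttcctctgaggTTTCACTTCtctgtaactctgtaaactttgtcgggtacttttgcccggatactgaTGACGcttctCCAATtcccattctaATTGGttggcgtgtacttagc

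These windows are chr17:35379367-35379616 for H2-Q4, chr17:35424600-35424849 for H2-Q6 and chr17:37269984-37270233 for H2-M3, on the plus strand. On the minus strand, they are chr17:36042743-36042992 for H2-T22 and chr17:36032702-36032951 for H2-T23. Each of the 5 holds 1 IRF-like match and at least 1 CCAAT match, and so does the promoter of H2-Q7. The IRF-like matches of H2-T22 and H2-T23 have only the widened form, so their presence was fixed by the widening. H2-Q6 and H2-T23 hold no TGACG match. The NF-kB-like letters were present in the 3 H2-Q promoters and in those of the classical genes H2-K1 and H2-D1, and absent from the H2-T22, H2-T23 and H2-M3 windows. Among all 32851 promoters of the table, from 250 bases before to 50 after the start, 10.4% held an IRF-like match, 5.82% the NF-kB-like letters, 20.8% TGACG and 37.4% CCAAT. A match in these letters is a description and no binding site. The libraries hold no measure of binding at these windows.

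The deposited values are FPKM, which divide a gene's fragments by its length and by the size of the library. Sums of FPKM ran from 468605 to 490955 in the YKL-40-labelled libraries and from 469464 to 479586 in the controls. Read totals are not given in the sources used here, so the depth is unknown and no counting interval could be set. Chil1, the mouse gene of YKL-40 (chromosome 1, 134182156 to 134190031), was listed at 0 in all 3 YKL-40-labelled libraries and at 0.0644, 0 and 0.0242 FPKM in the controls. It does not show the overexpression named in the labels, and without the species of the sequence it cannot check them. Melanocyte markers summed to between 8580 and 10700 FPKM in YKL-40-labelled libraries and to between 8580 and 10000 FPKM in controls, led by Pmel, Dct, Tyr and Tyrp1. The first principal component (57% of the variance of the tested genes) placed the YKL-40-labelled libraries at 7.81 to 31.2 and the controls at -34.1 to -12.2.

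Summed over the 8 genes, non-classical class I RNA reached 105, 61.0 and 142 FPKM in the YKL-40-labelled libraries, against 19.8, 22.8 and 26.1 FPKM in the controls. The means were 102 ± 40.3 and 22.9 ± 3.15 FPKM (SD, n = 3 each), 4.48-fold apart. The test was limma on log2(FPKM + 1), fitted to the 11241 genes that averaged 1 FPKM or more, with Benjamini-Hochberg adjustment over all of them and a threshold of 0.05. Each of the 8 members had a mean high enough to be tested, H2-T10 only through its YKL-40-labelled libraries. H2-T23, H2-Q4 and H2-T10 rose, while 5 members did not pass, and 0 fell. Of all tested genes 0.436% were called, 0.365% as higher and 0.0712% as lower. In 7 members every YKL-40-labelled library lay above every control, which held in that direction for 10.3% of all tested genes, and 7 had an unadjusted p under 0.05 in limma, where 8.71% of all tested genes did so and were higher. Their median change was 1.64 on the log2 scale, where the median of all tested genes was -0.04.

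**Figure D1:**
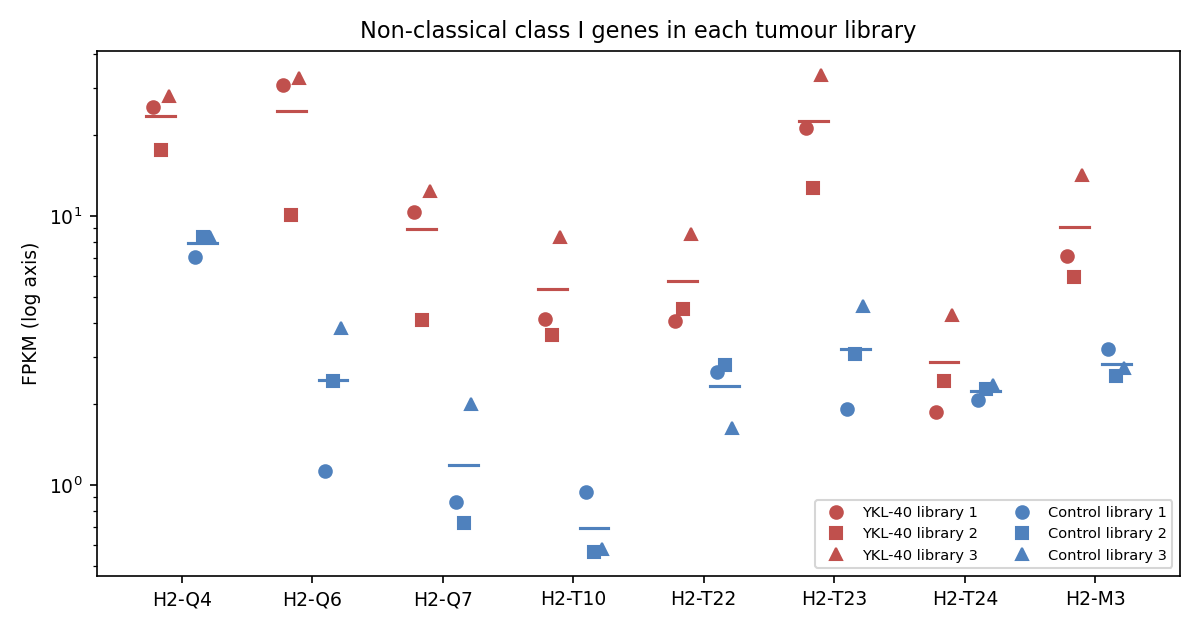
FPKM of the 8 genes in each library on a log axis, YKL-40-labelled libraries in red and controls in blue, with bars at the group means (n = 3 each). The groups are apart for every gene except H2-T24, and the third YKL-40-labelled library is the highest for each gene.

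H2-T23 (chromosome 17, 36029977 to 36032701), the Qa-1 gene, stood at 21.3, 12.7 and 33.5 FPKM in YKL-40-labelled libraries and at 1.92, 3.06 and 4.64 FPKM in controls. The lowest YKL-40-labelled value was 2.74 times the highest control. Means were 22.5 ± 10.4 and 3.21 ± 1.37 FPKM (SD, n = 3 each), and the gene rose by 2.43 ± 0.36 (SE) on the log2 scale (limma, adjusted p = 0.0484). This call sat just inside the threshold. It ended with pseudocounts of 0.1 and 0.01 (limma, adjusted p = 0.0503 and 0.0587), with no filter, with median of ratios scaling, with no variance trend, and on leaving out YKL-40-labelled library 1 or 3 or control 1 or 2 (limma, adjusted p from 0.0804 to 0.158).

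H2-Q4 (35379617 to 35384674), a gene of the Q region whose function is less well known, had 25.3, 17.6 and 27.8 FPKM in YKL-40-labelled libraries and 7.05, 8.38 and 8.35 FPKM in controls. All YKL-40-labelled values were above the controls, with means of 23.6 ± 5.31 and 7.93 ± 0.757 FPKM (SD, n = 3 each). The gene rose by 1.44 ± 0.17 (SE; limma, adjusted p = 0.0303), the smallest adjusted p among the members. This call ended with no filter (limma, adjusted p = 0.112) and without YKL-40-labelled library 1 or 3 or control 1 or 2 (limma, adjusted p from 0.0528 to 0.136).

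The largest change in the family was that of H2-Q6 (35424850 to 35430055), one of the genes behind Qa-2. Its values were 30.7, 10.1 and 32.6 FPKM in YKL-40-labelled libraries and 1.13, 2.44 and 3.82 FPKM in controls, a 9.93-fold difference between the means. The second YKL-40-labelled library lay well below the other two, and above every control. The change of 2.80 ± 0.47 (SE) did not pass (limma, adjusted p = 0.0708), although it ranked 23 in size among the 11241 tested genes. H2-Q7 (35439140 to 35443773), the other Qa-2 gene among the members, had 10.3, 4.10 and 12.4 FPKM in YKL-40-labelled libraries and 0.867, 0.723 and 1.99 FPKM in controls. It showed the same order of YKL-40-labelled libraries as H2-Q6, and its change of 2.11 ± 0.38 did not pass either (limma, adjusted p = 0.0765).

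H2-T10 (36115871 to 36121444), annotated by RefSeq as a transcribed pseudogene, was the lowest member in controls. It had 4.15, 3.62 and 8.34 FPKM in YKL-40-labelled libraries and 0.937, 0.564 and 0.578 FPKM in controls. The gap between the groups was the widest of all members, the lowest YKL-40-labelled value being 3.86 times the highest control, and the gene rose by 1.85 ± 0.27 (SE; limma, adjusted p = 0.0476). With a control mean of 0.693 FPKM it met the filter only through the group where it was high, and with no filter it did not pass (limma, adjusted p = 0.119). The call also ended with median of ratios scaling (0.0531) and without YKL-40-labelled library 1, control 1 or control 2 (limma, adjusted p from 0.138 to 0.156), and the change was 2.72 and 2.88 with pseudocounts of 0.1 and 0.01. H2-T22 (36037128 to 36042742), its near copy, had 4.08, 4.49 and 8.55 FPKM in YKL-40-labelled libraries and 2.62, 2.78 and 1.63 FPKM in controls. The groups were apart by a factor of 1.47 at their nearest values, and the change of 0.96 ± 0.26 did not pass (limma, adjusted p = 0.138).

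H2-M3 (37270234 to 37274485), the gene of the heavy chain that presents formylated peptides, had 7.08, 5.92 and 14.2 FPKM in YKL-40-labelled libraries and 3.20, 2.55 and 2.73 FPKM in controls. Every YKL-40-labelled value was above the controls, with means of 9.07 ± 4.49 and 2.82 ± 0.339 FPKM (SD, n = 3 each). The change of 1.31 ± 0.28 did not pass (limma, adjusted p = 0.0862). H2-T24 (36003471 to 36020800), a member of less known function, was the exception in the family. It had 1.87, 2.43 and 4.28 FPKM in YKL-40-labelled libraries and 2.06, 2.28 and 2.35 FPKM in controls, so the groups overlapped and 1 YKL-40-labelled library was below all controls. Its change of 0.21 had a 95% interval from -0.31 to 0.73 (limma, adjusted p = 0.653), and was -0.04 without YKL-40-labelled library 3.

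**Figure D2:**
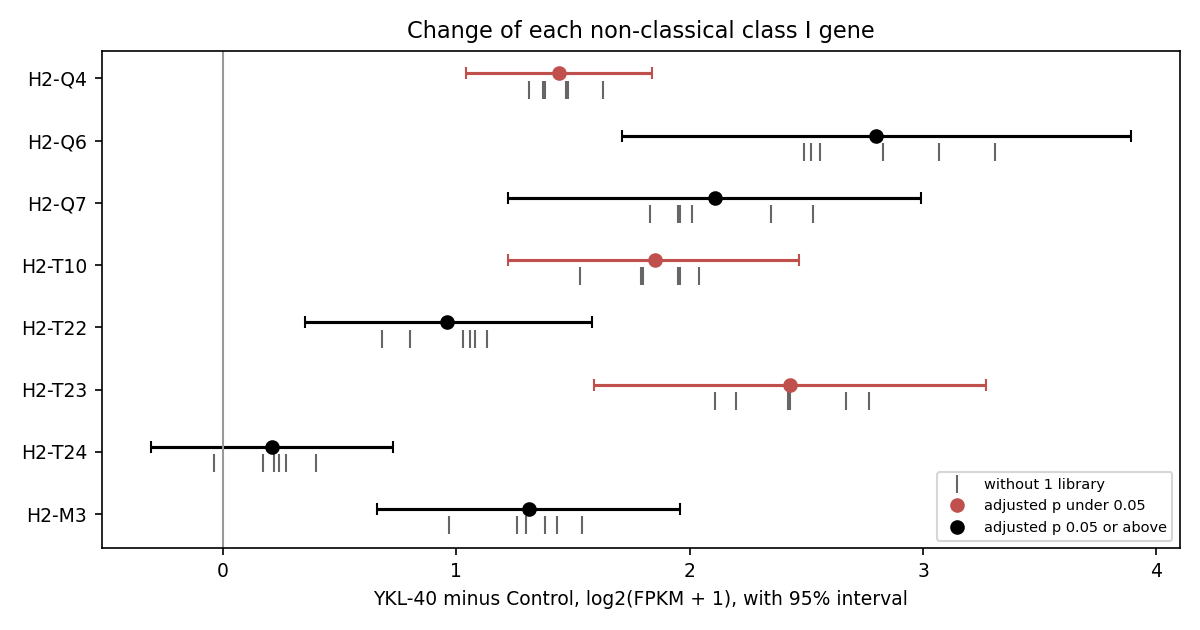
Change of each gene, as YKL-40-labelled less control values in log2(FPKM + 1), with its 95% interval from limma, red where the adjusted p was under 0.05, with ticks for the fits without 1 library. All intervals except that of H2-T24 lie above 0, and changes run from 0.21 for H2-T24 to 2.80 for H2-Q6.

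How many members passed varied with the libraries fitted. None did once YKL-40-labelled library 1, control 1 or control 2 was dropped, and H2-T10 alone did once YKL-40-labelled library 3 was dropped. Dropping YKL-40-labelled library 2 gave 6 and dropping control 3 gave 5, with H2-Q4, H2-Q6, H2-Q7, H2-T10 and H2-T23 called in both. The calls over all tested genes, 49 with every library, moved alike, to 238 without YKL-40-labelled library 2 and 209 without control 3. Dropping YKL-40-labelled library 1 or 3 left 4 and 35 calls, and dropping control 1 or 2 left 2 and 0. In each of these 6 fits the changes of 7 members were positive and their unadjusted p in limma was under 0.05.

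The order of the members by level differed between the groups. Mean FPKM in YKL-40-labelled libraries fell from H2-Q6 (24.5) through H2-Q4 (23.6), H2-T23 (22.5), H2-M3 (9.07), H2-Q7 (8.91), H2-T22 (5.71) and H2-T10 (5.37) to H2-T24 (2.86). In controls it was H2-Q4 (7.93), then H2-T23 (3.21), H2-M3 (2.82), H2-Q6 (2.46), H2-T22 (2.34), H2-T24 (2.23), H2-Q7 (1.19) and H2-T10 (0.693). Within the first 3 places of the YKL-40-labelled order the neighbours lay within their spread, and so did those from H2-T23 to H2-T24 in controls. H2-Q6 made up 29.3%, 16.6% and 23% of the members' summed FPKM in YKL-40-labelled libraries and 5.70%, 10.7% and 14.6% in controls. For H2-T24 these shares were 1.79%, 3.99% and 3.02% in YKL-40-labelled libraries and 10.4%, 10.0% and 9.02% in controls.

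Controls were ordered differently from member to member. H2-Q6 and H2-T23 were lowest in control 1 and highest in control 3, and H2-Q7 was also highest in control 3. H2-T22 was lowest in control 3, and so was B2m, the light chain gene, with 394, 374 and 219 FPKM in controls 1, 2 and 3. Among YKL-40-labelled libraries the third was highest for all 8 members, and the second was lowest for 6. The exceptions were H2-T22 and H2-T24, which were lowest in the first.

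Whether the non-classical genes moved by the same factor as the classical gene H2-K1 was asked with the ratio of each to H2-K1 in every library. H2-K1 (33996012 to 34000619) had 516, 386 and 743 FPKM in YKL-40-labelled libraries and 106, 91.5 and 101 FPKM in controls, far above any member. Relative to H2-K1, H2-T24 differed by -2.19 on the log2 scale, H2-T22 by -1.44, H2-M3 by -1.09 and H2-Q4 by -0.96, so these changed less than H2-K1 did. In each of the 4 the ratios of the YKL-40-labelled libraries were all below those of the controls (exact two-sided permutation p = 0.1, the smallest that 3 against 3 libraries allow, for 8 ratios tested). None of the 8 ratios could pass a threshold of 0.05 in this design. The difference was 0.03 for H2-T23 and 0.39 for H2-Q6, with overlapping groups. For H2-T10 and H2-Q7 it was -0.56 and -0.30 with the added 1 FPKM, but 0.46 and 0.47 with 0.01 FPKM in its place, so their direction against H2-K1 turns with the pseudocount.

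**Figure D3:**
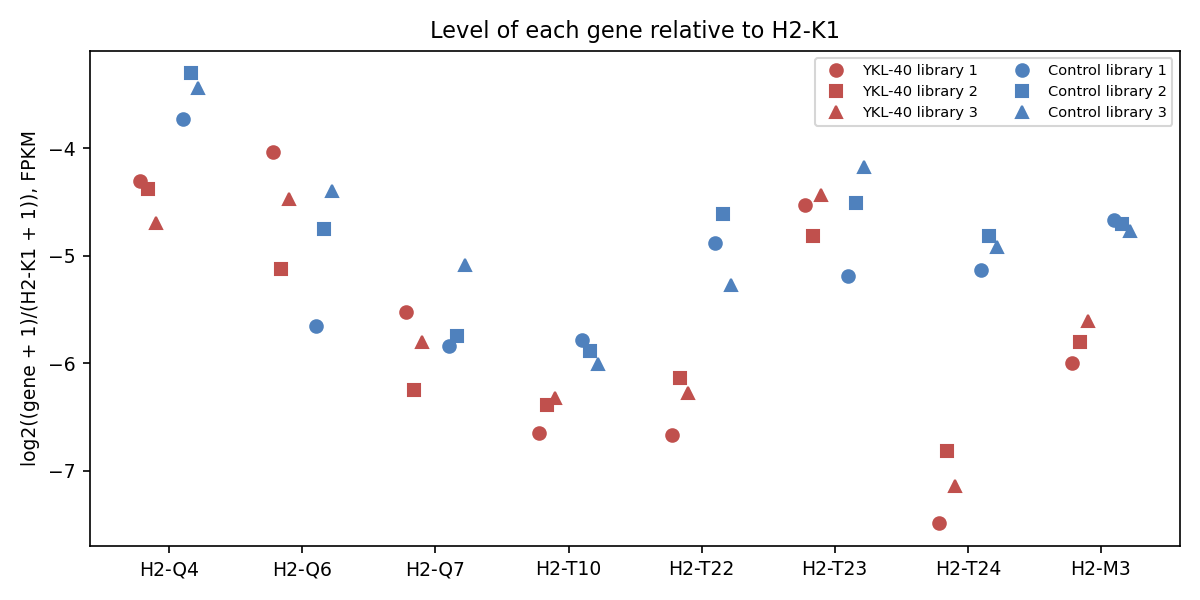
Ratio of each gene to H2-K1 in every library, as log2((gene + 1)/(H2-K1 + 1)) of FPKM, YKL-40-labelled libraries in red and controls in blue. The groups are apart for H2-Q4, H2-T10, H2-T22, H2-T24 and H2-M3, all lower in YKL-40-labelled libraries, and they overlap for H2-Q6, H2-Q7 and H2-T23; the direction for H2-T10 turns with a pseudocount of 0.01.

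How surely a value belongs to its gene differs within the family, because near copies share reads. In the longest protein-coding transcript of each gene (GENCODE M21), the share of 50-base stretches that also occur in another gene was 44.7% for H2-T22, 42.9% for H2-T10, 39.2% for H2-Q4, 35.0% for H2-Q6, 34.9% for H2-Q7 and 29.8% for H2-T23. It was 3.23% for H2-T24 and 0.576% for H2-M3. H2-T10 and H2-T22 shared mostly with each other (40.2% and 37.9% of their stretches), and H2-Q7 shared most with H2-Q6 (19.3%). Over 100 bases, 11.8% to 16.4% remained for H2-T10, H2-T22 and the H2-Q genes, 7.28% for H2-T23, and 0 for H2-M3 and H2-T24. The read length and the treatment of reads with several matches are not given in the sources used here. The least ambiguous members were thus H2-M3, which had a change of 1.31, and H2-T24, with 0.21, and neither passed.

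**Figure D4:**
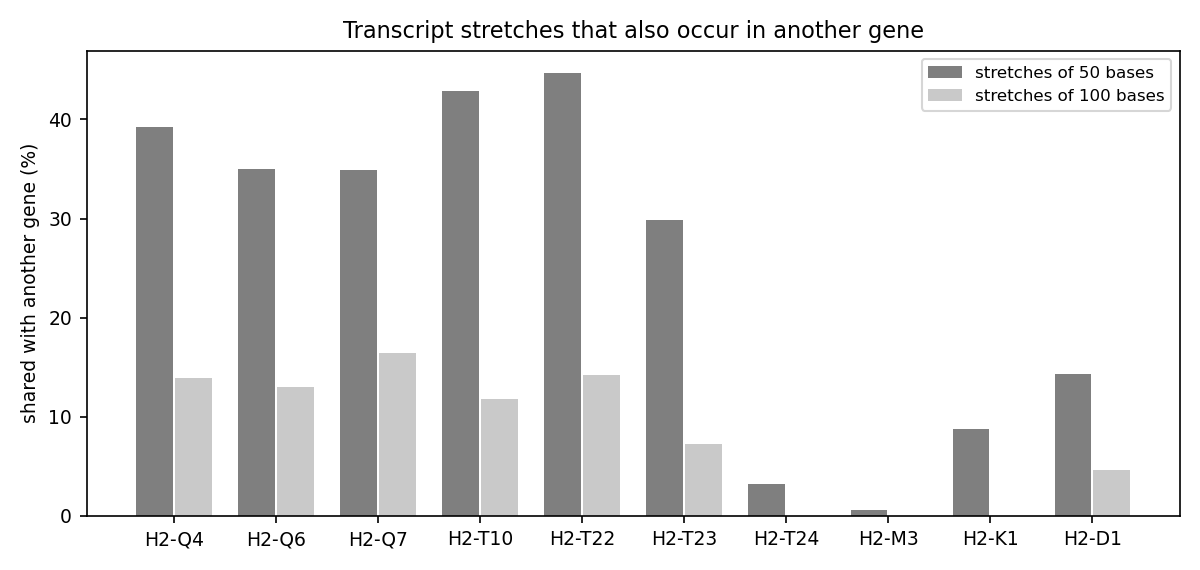
Share of each transcript's stretches of 50 bases (dark) and 100 bases (light) found exactly, on either strand, in a transcript of another gene. At 50 bases 6 members lie between 29.8% and 44.7%, while H2-T24 and H2-M3 lie at 3.23% and 0.576%.

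The proportions within the copy pairs were compared as ratios of FPKM, and tested as log2 ratios with 1 FPKM added to both genes. H2-T10 stood at 1.02, 0.806 and 0.975 times H2-T22 in YKL-40-labelled libraries and at 0.358, 0.203 and 0.355 times in controls. These ratios did not overlap, and the tested log2 ratio differed by 0.88 (exact two-sided permutation p = 0.1, the smallest possible). H2-Q6 stood at 2.98, 2.48 and 2.64 times H2-Q7 in YKL-40-labelled libraries and at 1.30, 3.37 and 1.92 times in controls. These overlapped as printed, while with 1 FPKM added the log2 ratio differed by 0.69, again with the smallest possible exact two-sided permutation p of 0.1. When the copies were summed, H2-T10 with H2-T22 changed by 1.52 (limma, adjusted p = 0.0785) and H2-Q6 with H2-Q7 by 2.81 (limma, adjusted p = 0.0715), so the call of H2-T10 was lost.

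Further rows of the same region bear on this. The table held 19 other class I genes with H2 names. Only H2-T9 of these reached the filter, and 6 were listed at 0 in every library. Gm11127 (36055816 to 36058371), which lies in the region and shares stretches with H2-T10, H2-T22 and H2-T23, was also tested. It had 1.47, 2.0 and 1.59 FPKM in YKL-40-labelled libraries and 2.29, 1.92 and 3.55 FPKM in controls. Its change of -0.40 did not pass (limma, adjusted p = 0.323). The GENCODE set used here does not name H2-T9 or H2-L, so stretches shared with them were not counted. H2-T9, a T-region gene, had 240, 183 and 386 FPKM in YKL-40-labelled libraries and 81, 111 and 92 FPKM in controls, a higher level per length than any member's. Its change of 1.44 did not pass (limma, adjusted p = 0.0775). Summed with H2-T10 and H2-T22 it changed by 1.45 (limma, adjusted p = 0.0764). H2-Q9, also a Qa-2 gene, had 1.71, 1.97 and 1.74 FPKM in YKL-40-labelled libraries and 0, 0.280 and 0.245 FPKM in controls. H2-Q8 was at 2.93 FPKM in YKL-40-labelled library 2 and at or below 0.422 FPKM in the other libraries. The sum of H2-Q6 to H2-Q9 rose by 2.90 (limma, adjusted p = 0.0453), a combination chosen after the values were seen. H2-T3, the gene of the thymus leukaemia antigen, was at 0.129 FPKM in YKL-40-labelled library 3 and listed at 0 elsewhere.

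The classical heavy chains rose too. All 3 listed rows passed, and none did with no filter or without YKL-40-labelled library 1, control 1 or control 2. The changes were 2.40 for H2-K1, 1.78 for H2-D1 and 1.54 for the row named H2-L (limma, adjusted p = 0.0303, 0.0303 and 0.0386). Since H2-K and H2-D are the classical molecules of this strain, the H2-L row cannot be counted as a further classical gene. Which gene its reads came from was not tested. Of 14 genes for the light chain, peptide supply and loading, 5 rose and 0 fell, with a median change of 1.39. In limma 0 of them passed with no filter or without YKL-40-labelled library 1, control 1 or control 2, and 8 passed without YKL-40-labelled library 2. With every library, 11 were higher with an unadjusted p under 0.05 in limma, as were 8.71% of all tested genes. Psmb8 and Psmb9, subunits of the immunoproteasome, rose by 3.55 and 3.14, and Tap1, which carries peptides into the endoplasmic reticulum, by 2.32 (limma, adjusted p = 0.0303 for each). The other two, named after their values were seen, were Tap2 (2.06; limma, adjusted p = 0.0309) and Tapbp (1.64; limma, adjusted p = 0.04). B2m had 711, 630 and 1100 FPKM in YKL-40-labelled libraries against 394, 374 and 219 FPKM in controls, a change of 1.31 that did not pass (limma, adjusted p = 0.0881). The chaperone gene Calr, the most abundant of the list, had a change of 0.10 (limma, adjusted p = 0.67).

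Class I-like genes outside the H2 region numbered 17, of which 7 could be tested. In limma 0 of them passed, 2 were lower and 0 higher at an unadjusted p under 0.05, and the median change was -0.10. For comparison, 2018 of all tested genes had an unadjusted p under 0.05 in limma. Higher genes were 979 of these, 8.71% of all tested genes, and the rest were lower. Hfe, an iron regulator, had 16.1, 20.5 and 15.1 FPKM in YKL-40-labelled libraries against 20.5, 18.4 and 16.4 FPKM in controls. Raet1d, a ligand of the activating receptor NKG2D, had a change of -0.42 (limma, adjusted p = 0.209), Azgp1 of -0.67 (0.243) and Fcgrt, the neonatal Fc receptor, of 0.31 (0.279).

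Among 21 regulators of class I transcription, 20 could be tested, 1 rose and 0 fell, with a median change of 0.05. Irf1, an interferon-induced transcription factor that binds class I promoters, had 40.5, 30.3 and 73.5 FPKM in YKL-40-labelled libraries and 9.01, 11.7 and 10.2 FPKM in controls. It rose by 2.03 (limma, adjusted p = 0.0472), a call lost with a pseudocount of 0.01, no filter, median of ratios scaling, no variance trend, or without YKL-40-labelled library 1, control 1 or control 2. Nlrc5, the class I transactivator, had 15.4, 20.2 and 35.0 FPKM in YKL-40-labelled libraries and 9.49, 6.83 and 4.90 FPKM in controls, a change of 1.56 that did not pass (limma, adjusted p = 0.0845). Ifnar1, the most abundant of the list, had a change of -0.12 (limma, adjusted p = 0.602). The gene of interferon gamma, Ifng, lay below the filter, at 0.250, 0.235 and 0.695 FPKM in YKL-40-labelled libraries and 0, 0.0215 and 0 FPKM in controls.

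Receptors described for non-classical class I molecules were low, and none was called with all 6 libraries at equal weight. The table held 16, of which 5 could be tested. In limma 0 of these passed, and 4 were higher with an unadjusted p under 0.05, as were 8.71% of all tested genes. Of the 5, Klrc1, Cd8a and Klra2 met the filter only through the YKL-40-labelled libraries, so the filter favours higher genes in that count. Cd8a, Klrc1 and Klrd1 passed without YKL-40-labelled library 2, Pirb without control 3, and 4 with array quality weights. Klrc1, which codes for NKG2A, the partner of CD94 in binding Qa-1, had 2.62, 0.696 and 4.84 FPKM in YKL-40-labelled libraries and 0.134, 0.132 and 0.254 FPKM in controls (limma, adjusted p = 0.136). Klrd1, which codes for CD94, lay below the filter, with 2.11, 0.614 and 2.45 FPKM in YKL-40-labelled libraries and 0.122, 0.199 and 0.258 FPKM in controls. Cd8a and Pirb had changes of 1.79 and 1.23 (limma, adjusted p = 0.121 and 0.142). As with H2-Q6, H2-Q7 and H2-T23, the second YKL-40-labelled library was the lowest of its group for Klrc1, Klrd1 and Cd8a. That is not particular to them, as it was also lowest for H2-K1, H2-D1, B2m, Ptprc and Lum, though not for C1qb.

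Marker sums of several cell types moved with the members, though not every marker did. In whole tumours more cells of a type and more RNA per cell cannot be told apart. The 4 leukocyte markers summed to 66.9, 44.0 and 73.9 FPKM in YKL-40-labelled libraries and to 8.41, 13.3 and 28.8 FPKM in controls. In limma 0 of 4 passed while 4 were higher with an unadjusted p under 0.05 (8.71% of all tested genes), and the groups overlapped for Cd53. T cell markers, 9 in the table and 2 tested, summed to between 9.27 and 24.2 FPKM in YKL-40-labelled libraries and 1.54 to 5.68 FPKM in controls. The 7 natural killer cell markers summed to between 6.93 and 24.5 FPKM in YKL-40-labelled libraries and 0.175 to 1.09 FPKM in controls. For all 9 and all 7 the YKL-40-labelled values lay above the controls without overlap. Beside this and the further counts of higher markers without overlap, the share was 10.3% over all tested genes. Untested markers averaged below 1 FPKM, and no share was taken over such low rows. In limma 2 of the 3 natural killer cell markers tested passed. All 3 (Gzmb, Prf1 and Nkg7) met the filter only through the YKL-40-labelled libraries. Macrophage markers summed to between 207 and 340 FPKM in YKL-40-labelled libraries and 58.6 to 159 FPKM in controls. Of these, 6 of 9 lay higher without overlap, the exceptions being Csf1r, Cd68 and Mrc1, and 0 passed in limma. Dendritic cell markers summed to between 16.9 and 35.8 FPKM in YKL-40-labelled libraries and 5.01 to 11.1 FPKM in controls. Here 7 of 8 lay higher without overlap, Zbtb46 had a change of 0.0, and 0 of the 4 tested passed in limma. Fibroblast markers summed to between 141 and 255 FPKM in YKL-40-labelled libraries and 16 to 157 FPKM in controls. Their sums overlapped through Col1a1 and Col1a2, but 4 of 6 markers lay higher without overlap. In limma 0 passed while 6 were higher with an unadjusted p under 0.05 (median change 1.71), as were 8.71% of all tested genes. Of the 6, Dpt met the filter only through the YKL-40-labelled libraries. Endothelial markers ran from 43.8 to 74.6 FPKM in YKL-40-labelled libraries and 37.3 to 83.6 FPKM in controls. Skeletal muscle markers went the other way, with 3.43 to 24.7 FPKM in YKL-40-labelled libraries and 37.7 to 163 FPKM in controls. Of these markers 7 of 8 were lower at an unadjusted p under 0.05 in limma. Among the 7, Myh4 and Actn3 met the filter only through the controls, so the filter favours lower genes in that count. In all, 2018 tested genes had an unadjusted p under 0.05 in limma. Higher genes were 979 of them, 8.71% of all tested genes, and the rest were lower. B cell, neutrophil and keratinocyte markers stayed below 15 FPKM in sum, with 1 neutrophil and 2 keratinocyte markers at 0 throughout. The part of these markers in the members' changes was not tested.

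**Figure D5:**
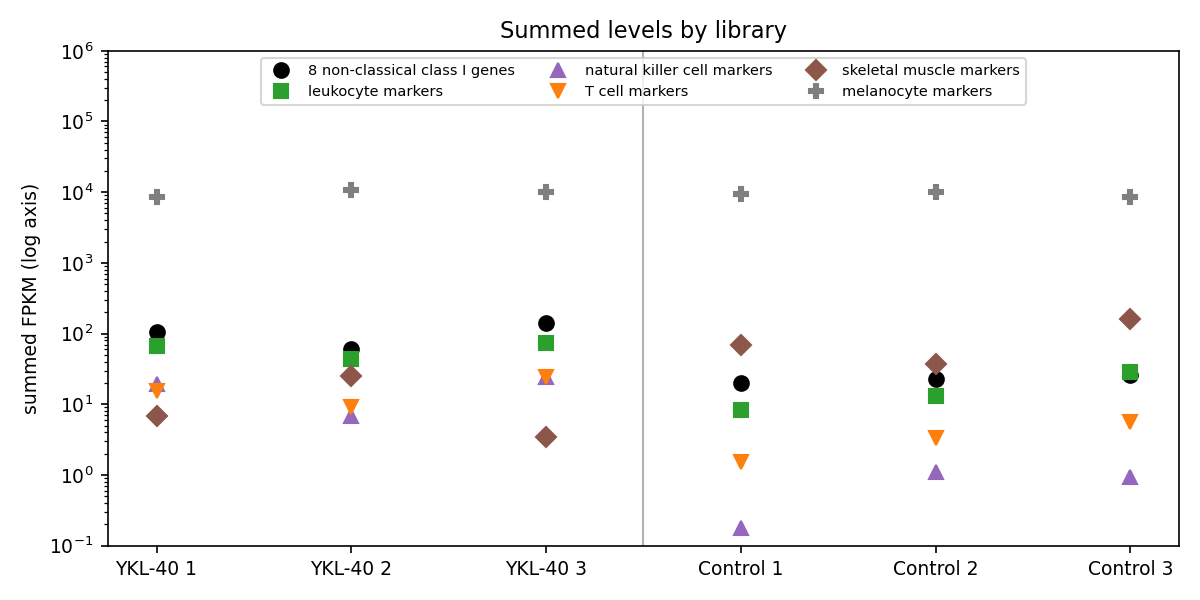
Summed FPKM on a log axis of the 8 genes and of 5 marker lists in each library, YKL-40-labelled libraries left of the line and controls right of it. The 8 genes sum to between 61.0 and 142 FPKM on the left and between 19.8 and 26.1 FPKM on the right; leukocyte, T cell and natural killer cell sums are also higher on the left, and the skeletal muscle sum is lower.

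The genes whose pattern over the 6 libraries was nearest to the mean of the members were found by the mean absolute difference of centred log2(FPKM + 1) values, over all tested genes. They were Slamf8 (0.07), Psmb10 (0.07), Tapbp (0.09), Il12rb1 (0.11) and Il1rl1 (0.12). H2-Q4 itself lay at 0.13 from that mean, H2-M3 at 0.17, and H2-Q6 and H2-T24 farthest, at 0.58 and 0.71. Taken singly, the nearest gene was H2-D1 for H2-T10 (0.10), Stat2 for H2-T22 (0.08), Gbp9 for H2-T23 (0.16), Themis2 for H2-Q4 (0.08) and Il18bp for H2-M3 (0.06). Rarres2 was nearest to H2-Q6 (0.15), Cxcl12 to H2-Q7 (0.10) and Exog, with a change of 0.11 (limma, adjusted p = 0.787), to H2-T24 (0.07). Slamf8, Il1rl1, Themis2 and Il18bp lay below 1 FPKM in every control. They met the filter only through the YKL-40-labelled libraries, and the added 1 FPKM is large beside their control values. These distances describe 6 libraries and carry no test.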

How the data were processed

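RNA of 6 tumours was sequenced from 2 µg each with TruSeq RNA v2, a kit that keeps no strand, per the labels' protocols. The authors deposited 1 FPKM value per gene and library. Build mm10, HISAT2, StringTie, bcl2fastq 2.0, limma and DESeq2 are listed, without roles, in the submitters' processing notes. Annotation, read length and handling of multiply matching reads are not given in the sources used here. Groups came from the sample titles, and no library was left out. Values were tested as log2(FPKM + 1), which understates changes of low genes, with limma 3.58.1 (R 4.3.3) and a variance trend, two-sided, over genes that averaged 1 FPKM or more. The procedure was tested on simulated data. Ratios used an exact permutation test over libraries. The members, gene lists and naming rule (all members, the 3 genes of lowest p and the most abundant gene of each pathway list, and nearest profiles) were chosen with earlier results of these data known. A gene that this rule names is not reported here. The alternatives were other pseudocounts, filters and scalings, no variance trend, array quality weights, a replicate block, summed near copies and each library left out. Positions and promoters came from RefSeq (GRCm38.p6), transcripts from GENCODE M21.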

Additional observations from a re-analysis of the deposited data

How the results depend on the processing

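Of the 8 members, 3 were called higher in limma. Testing all genes with no filter gave 0 (7 at an unadjusted p under 0.05), median of ratios scaling 1 (H2-Q4) and array quality weights 7, and the count ranged from 0 to 6 over the fits without 1 library. The number of all tested genes called was 49, against 1 with no filter and 1111 under array quality weights. It ranged from 0 to 238 over the fits without 1 library, with 0 without control 2 (1345 at an unadjusted p under 0.05). Same-numbered libraries did not deviate together (correlations of -0.0832, -0.185 and 0.0017). With 3 libraries per group these correlations cannot exclude that the numbers pair libraries. With the replicate number as a block, 5 members and 120 of all tested genes were called. Leaving out 1 library, the change of H2-T24 ranged from -0.04 (without YKL-40-labelled library 3) to 0.40, and every other change of a member was positive under each alternative. The differences against H2-K1 reversed with pseudocounts of 0.1 and 0.01 for H2-Q7 (0.37 and 0.47) and H2-T10 (0.31 and 0.46). Without 1 library the difference ranged from -0.26 to 0.26 for H2-T23. No member was called lower in limma under any of these settings, with 5 to 8 members at an unadjusted p under 0.05. With a filter at a mean of 5 FPKM, H2-T10, H2-T22 and H2-T24 were not tested. The causes of these differences were not tested. Depth is unknown, so how far it limits the low members H2-T10 and H2-T24 cannot be given.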
